A study of Homo sapiens
Mus musculus with 3 samples.

Results

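RAG1, PTCRA, CD1E, ARPP21, ITM2A, MAL and AIF1 are 7 human genes grouped here as genes of immature thymocytes, the T cell precursors of the thymus. They are not all particular to that stage, as said of each below. They were taken as 7 rows of the 32738 human genes, among 60736 human and mouse genes in all, by their Ensembl identifiers, and were read in the human wells of 3 single-cell libraries. The cells were a mixture in equal parts of 4 lymphoid lines. The human lines were Jurkat, a CD4+ T cell leukemia line, and TALL-104, a CD8+ cytotoxic T cell leukemia line grown with IL-2. The mouse lines were EL4, a T cell lymphoma, and IVA12, a B cell hybridoma. Each cell was dispensed into a nanowell of the ICELL8 system, and 3′ ends of mRNA were counted with the 3'DE protocol (2 libraries) or the 3'DE-UMI protocol (1 library). In the latter, cDNA was cleaned of leftover primers before amplification, so that unique molecular identifiers (UMIs) could count molecules rather than amplified copies. 3'DE library 1 was made from 1 cell mixture, and the 3'DE-UMI library shared another with 3'DE library 2. No treatment, genotype or time distinguished the wells, and each line stood for its tumor of origin only, since a leukemia grown in culture need not keep the program of a thymocyte.

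In the thymus, precursors first rearrange the T cell receptor beta gene with the RAG recombinase. The product pairs with the invariant pre-T cell receptor alpha chain, and cells that pass this checkpoint proliferate and become cortical CD4+CD8+ thymocytes, which carry CD1 proteins and rearrange the alpha gene. RAG1, PTCRA and CD1 genes are switched off as thymocytes mature, and T cell leukemias are often described by the step at which they resemble this path.

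A well was kept with at least 1000 reads and 200 genes, and was called human when under 10% of its reads were of mouse genes. This left 533 and 484 human wells in 3'DE libraries 1 and 2 and 557 with the 3'DE-UMI protocol, and 922, 773 and 700 mouse wells. The human wells fell into 2 clusters from genes other than the 7, and 1570 of the 1574 wells kept their cluster when a separate set of genes was used. Human cluster 1 held 406, 448 and 531 wells, with a median of 25801, 36445 and 17314 human reads per well. Human cluster 2 held 127, 36 and 26 wells, which were shallower, with medians of 4493, 9277 and 5673. Of the human genes only these 7 had a symbol in the sources used here, so the markers of Jurkat and TALL-104 could not be looked up and the clusters were kept as numbers. Free RNA was read from the reads of the other species in a well, and it was highest in 3'DE library 2. Mouse wells should hold none of these human transcripts, and the median share of mouse reads in them was 99.574%, 98.220% and 99.635%. In cluster 1 wells the median share of mouse reads was 0.257%, 4.28% and 1.62%. Free RNA was thus lowest with the 3'DE-UMI protocol by the mouse wells, but in 3'DE library 1 by the cluster 1 wells. Barcodes come from a fixed list, and 529 were shared by both 3'DE libraries, while the 3'DE-UMI library shared 539 with the first of them and 469 with the second.

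Of the 7 genes, 6 were found almost only in human cluster 1, and ITM2A was found in both clusters. Cluster 2 held far fewer human reads, 637255, 1396420 and 182769 against 10173399, 46479670 and 15201528 in cluster 1. The share of all human genes with as few reads in cluster 2 was not computed, so this count does not set the 7 genes apart. Levels are given as CPM, the reads of a gene per 1000000 human-gene reads, from reads summed over the wells of a cluster in a library. Together the 7 genes took 0.196%, 0.242% and 0.250% of the human reads of cluster 1. Here and below, where 3 values are given together, they are those of 3'DE libraries 1 and 2 and then of the 3'DE-UMI library. Levels of different genes are compared here because a 3′ end protocol gives reads that do not grow with transcript length. Reads per UMI still differed by gene, from 13.1 for RAG1 to 23.1 for CD1E, so an order of genes by reads is not one of molecules.

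**Figure D1:**
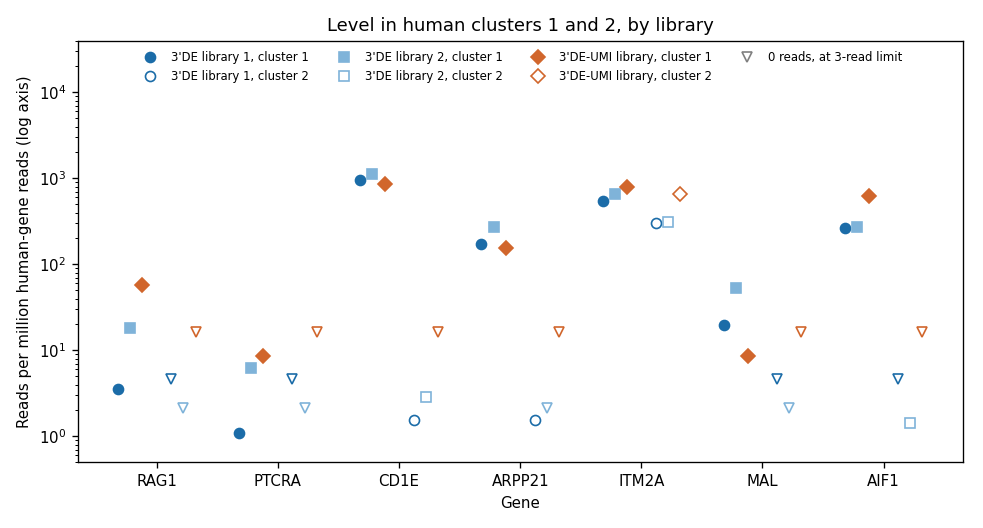
Level of each gene in CPM (log axis) in human cluster 1 (filled symbols) and human cluster 2 (open symbols), 1 point per library. Open triangles mark sums with 0 reads, drawn at the level that 3 reads would give. Every gene but ITM2A had at most 4 reads in any cluster 2 sum, while the cluster 2 points of ITM2A lie between 306 and 651 CPM.

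RAG1 (ENSG00000166349), the catalytic subunit of the recombinase that cuts antigen receptor genes, was rare. Its level in cluster 1 was 3.54, 18.2 and 57.0 CPM, and a read was found in 6 of 406, 42 of 448 and 41 of 531 wells. The 3 libraries thus spread widely, with the 3'DE-UMI library highest and 3'DE library 1 lowest. In the wells with a read, the median was 3, 11 and 20 reads. Without the deepest 10% of wells the level in 3'DE library 2 was 36.1 CPM, so deep wells lowered it. Cluster 2 held no RAG1 read in any library. At the cluster 1 level, 2.26, 25.4 and 10.4 reads would have been read there, so 3'DE library 1 was too shallow to show a difference. Over the 3 libraries, the bound by summed reads was 18.0-fold higher in cluster 1. It takes 3 reads over all cluster 2 wells as the limit that a count of 0 allows. This bound was 9.73 without 3'DE library 2 and 10.5 without the 3'DE-UMI library. That limit treats reads as independent, but a RAG1 UMI took 13.1 reads in the 3'DE-UMI library. A count of 0 thus does not show a difference of this size. The bounds and counting intervals of the other genes below also treat reads as independent. In mouse wells RAG1 was read in 0 of 922, 7 of 773 and 2 of 700, below the share in cluster 1 in each library.

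PTCRA (ENSG00000171611), the invariant chain that pairs with a newly made receptor beta chain, was the other rare gene of the checkpoint. Its level was 1.08, 6.24 and 8.55 CPM, and its reads came from 2, 33 and 12 wells of cluster 1. As for RAG1, 3'DE library 1 was lowest. The 3'DE-UMI library was highest on summed reads, but 3'DE library 2 was above it as a mean over wells (7.78 against 4.95 CPM) and without the deepest 10% of wells (8.14 against 6.45 CPM). No PTCRA read was found in cluster 2, where 13.3 reads would have been read over all libraries at the cluster 1 level. By summed reads the bound was 4.43-fold. It rested on 3'DE library 2, where 8.71 of those reads would have fallen, and without it the bound was 1.52-fold. In 3'DE library 2 the 290 PTCRA reads of cluster 1 lay in 33 wells, and a PTCRA UMI took 14.4 reads in the 3'DE-UMI library. Reads came in groups, so a count of 0 in cluster 2 does not show that PTCRA was lower there.

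CD1E (ENSG00000158488) is an intracellular member of the CD1 family that helps to load lipid antigens in cortical thymocytes and dendritic cells. By reads, CD1E was the most abundant of the 7 in both 3'DE libraries. Its level in cluster 1 was 952, 1138 and 867 CPM, which placed it 165th, 133rd and 186th among all human genes of that library. A read was found in 85.2% (exact binomial 95% interval 81.4 to 88.5), 88.2% (84.8 to 91.0) and 45.4% (41.1 to 49.7) of cluster 1 wells. Such intervals cover counting error only. Levels thus lay close together while the share of wells with a read was lowest in the 3'DE-UMI library. Cluster 2 held 1, 4 and 0 reads of CD1E, in 1 of 127, 4 of 36 and 0 of 26 wells. These shares were at or below those of the mouse wells, of which 2.71%, 35.7% and 2.86% had a CD1E read at a median of 75.5, 522 and 96.5 human reads per well, and are read as background. Over the 3 libraries CD1E was 467-fold higher in cluster 1 (counting interval 200 to 1439), and 739-fold without 3'DE library 2.

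ARPP21 (ENSG00000172995), a cyclic AMP-regulated phosphoprotein that binds RNA and is known from neurons and immature thymocytes, lay between the abundant and the rare genes. Its level was 174, 273 and 153 CPM, and it was read in 60.3%, 57.8% and 21.1% of cluster 1 wells. The 3 levels lay within 2-fold of each other, with 3'DE library 2 highest. Cluster 2 held a single read, in 3'DE library 1. The ratio over the 3 libraries was 518 (counting interval 93.0 to 20477). It was 111 in 3'DE library 1 alone and 133 without 3'DE library 2, and without 3'DE library 1 the bound by summed reads was 128-fold. Over all libraries, 518 reads would have been read in cluster 2 at the cluster 1 level.

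ITM2A (ENSG00000078596), a membrane protein that is induced when thymocytes are positively selected, was the exception. In cluster 1 its level was 541, 653 and 785 CPM, and in cluster 2 it was 306, 314 and 651 CPM. A read was found in 93.3%, 85.3% and 51.6% of cluster 1 wells, and in 43 of 127, 10 of 36 and 4 of 26 wells of cluster 2. The level was higher in cluster 1 in 3 of 3 libraries, by 1.77-fold, 2.08-fold and 1.21-fold, and without the deepest 10% of wells by 2.14-fold, 1.11-fold and 1.72-fold. The order of the libraries by this ratio thus changed when the deepest wells were left out. In the 3'DE-UMI library, the 119 reads of cluster 2 stood for 5 UMIs in 4 wells. In mouse wells ITM2A was read in 1.63%, 21.6% and 1.71%. In 3'DE library 2 the interval of the cluster 2 share, 14.2% to 45.2%, holds the value of the mouse wells. Mouse wells were deeper there, with a median of 31942 reads against 9509 in cluster 2. With each well thinned to 5000 reads, ITM2A was read in 30.8% of cluster 2 wells (interval 14.3% to 51.8%). In mouse wells of that library it was then 4.48% (3.08% to 6.26%), so at equal reads the cluster 2 share lay above background. ITM2A had a median of 13 reads in the cluster 2 wells with a read of that library, and of 1 read in such mouse wells.

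MAL (ENSG00000172005), a proteolipid of membrane rafts that rises during T cell differentiation, was low. Its level was 19.9, 53.3 and 8.55 CPM, in 10.1%, 25.7% and 1.88% of cluster 1 wells. Unlike RAG1 and PTCRA, MAL was lowest in the 3'DE-UMI library. Cluster 2 held no MAL read where 86.6 would have been read at the cluster 1 level, 74.4 of them in 3'DE library 2. By summed reads, the bound was 28.9-fold, and 3.58-fold without 3'DE library 2. Reads of MAL also came in groups, with 16.3 per UMI in the 3'DE-UMI library. A count of 0 in cluster 2 thus does not show a difference of this size.

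AIF1 (ENSG00000204472), a calcium-binding protein that bundles actin and is best known from macrophages and microglia, was abundant. Its level was 265, 275 and 617 CPM, and it was read in 74.6%, 71.9% and 59.3% of cluster 1 wells. Both 3'DE libraries gave nearly the same level, and the 3'DE-UMI library was above them. Cluster 2 held 0, 2 and 0 AIF1 reads. The ratio over the 3 libraries was 383 (counting interval 106 to 3163). It was 192 in 3'DE library 2 alone, and without 3'DE library 2 the bound by summed reads was 130.0-fold.

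**Figure D2:**
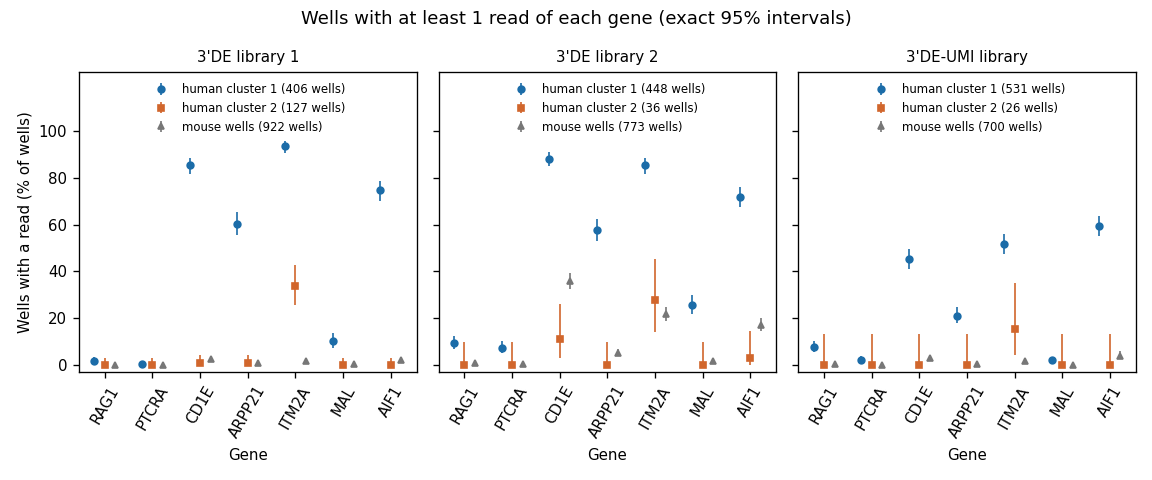
Share of wells (percent) with at least 1 read of each gene in human cluster 1, human cluster 2 and mouse wells, 1 panel per library, with exact binomial 95% intervals. ITM2A is the only gene of the 7 read in more than 12% of cluster 2 wells in any library, and the mouse wells of 3'DE library 2 show reads of CD1E (35.7%), ITM2A (21.6%) and AIF1 (17.2%).

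The clusters were then compared across libraries with edgeR on 6 sums of reads, 1 per cluster and library, with the library as a block. Of 10742 human genes tested, 3.67% were called at an adjusted p under 0.05, 2.37% as higher in cluster 1 and 1.29% as lower. Of the 7 genes, 3 were called, each higher in cluster 1 (edgeR, Benjamini-Hochberg adjustment). CD1E differed by 9.17 on the log2 scale (SE 0.96, adjusted p = 1.65e-18), AIF1 by 8.87 (SE 1.45, adjusted p = 2.70e-07) and ARPP21 by 8.90 (SE 1.99, adjusted p = 0.000653). Each was higher in 3 of 3 libraries. These p-values rest on a spread that edgeR pools over genes, more than on the few sums of a single gene. The fitted sizes depend on the prior count, as cluster 2 is at or near 0, and the bounds and ratios above are those of summed reads. RAG1 (adjusted p = 0.195), MAL (0.157) and PTCRA (0.296) did not pass the edgeR test, although no read of them was found in cluster 2. ITM2A did not pass, at a log2 difference of 0.91 (SE 0.63, adjusted p = 0.402). The median log2 difference over all genes tested was 1.84 in this fit and 1.65 with RLE factors, and ITM2A lay below it in both. With UMIs in the 3'DE-UMI library the median was 1.12 and ITM2A stood at 1.11. Without the library block they were 0.85 and 0.87, so the place of ITM2A depended on the setting. Among the genes tested, from the highest fitted difference, MAL ranked 100th, RAG1 227th, CD1E 732nd and ARPP21 850th. PTCRA ranked 865th, AIF1 867th and ITM2A 7047th. This order depended on the tool. With DESeq2 on the same sums, CD1E ranked 5th, AIF1 12th, ARPP21 28th, MAL 259th and RAG1 393rd, with PTCRA 1897th and ITM2A 6890th. All genes but ITM2A passed the filter on low counts only through cluster 1, so their number called is a description and no measure of how the 7 genes differ from others. Without 3'DE library 1, AIF1 (adjusted p = 0.143) and ARPP21 (adjusted p = 0.499) were no longer called, and without 3'DE library 2, ARPP21 was not (adjusted p = 0.0900). CD1E was called under every alternative fitted, with adjusted p up to 0.00247. DESeq2 on the same sums called 5 of the 7 genes, RAG1 (adjusted p = 0.0188) and MAL (adjusted p = 0.00922) in addition.

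The 3'DE-UMI library was then compared with both 3'DE libraries within cluster 1. The 3'DE-UMI library lay outside the range of both 3'DE libraries for all 7 genes, above it for RAG1, PTCRA, ITM2A and AIF1 and below it for CD1E, ARPP21 and MAL. This was common: of 11548 human genes with a mean of at least 1 CPM over the libraries, 81.6% lay outside that range, 35.3% above and 46.3% below. edgeR on the 3 sums of cluster 1 reads, with 1 residual degree of freedom, called 12.4% of 13732 human genes, 5.29% as higher and 7.12% as lower in the 3'DE-UMI library. With 1 3'DE-UMI library, its spread was taken to be that of the 3'DE libraries, and the protocol cannot be told apart from that library. Of the 7 genes, 2 were called. Both were higher in that library, AIF1 by 1.33 (SE 0.31, adjusted p = 0.0131 by edgeR) and RAG1 by 2.47 (SE 0.72, adjusted p = 0.0397 by edgeR) on the log2 scale.

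For AIF1, both 3'DE libraries differed by 0.16 on the log2 scale, far less than they differed from the 3'DE-UMI library. For RAG1, they differed by 2.47, as much as from the 3'DE-UMI library in the fit. MAL had a log2 difference of -1.98 (SE 0.70) that did not pass (adjusted p = 0.0792 by edgeR). It passed in 4 of 7 alternatives, with adjusted p from 0.0104 to 0.190. PTCRA (log2 difference 1.30 with adjusted p = 0.403), ITM2A (0.53 with 0.263), CD1E (-0.13 with 0.797) and ARPP21 (-0.42 with 0.515) did not pass the edgeR test.

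Within the mixture that gave both protocols (3'DE-UMI against 3'DE library 2), the log2 difference was 1.26 for AIF1, 1.74 for RAG1 and -2.55 for MAL, with no test. It was 0.54 for PTCRA, 0.35 for ITM2A, -0.30 for CD1E and -0.74 for ARPP21. Against 3'DE library 1, from the other mixture, it was 1.42 for AIF1, 4.21 for RAG1 and -1.01 for MAL. For PTCRA it was 3.18, for ITM2A 0.74, for CD1E 0.065 and for ARPP21 0.015. The 3'DE-UMI library was thus nearer to 3'DE library 2 for 4 of the 7 genes (RAG1, PTCRA, ITM2A and AIF1) and nearer to 3'DE library 1 for 3 (CD1E, ARPP21 and MAL). Mixture and library cannot be told apart here. For CD1E the fitted log2 difference from both 3'DE libraries was -0.13 with reads and -0.89 with UMIs in the 3'DE-UMI library. When UMIs replaced reads for the 3'DE-UMI protocol, AIF1 was still called and RAG1 was not (adjusted p = 0.119 by edgeR).

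Fewer cluster 1 wells had a read of CD1E, ARPP21, ITM2A, MAL and AIF1 in the 3'DE-UMI library than in either 3'DE library, and for RAG1 and PTCRA the share lay between both. Of those 11548 genes, 91.6% had the lowest share in the 3'DE-UMI library, 3.20% the highest, and 94.8% either. Depth differed, so each well was thinned to 5000 reads, which left out 15, 27 and 42 shallower wells. CD1E was then read in 76.0%, 81.2% and 43.1% of wells. ITM2A was read in 78.8%, 74.1% and 50.5%, and ARPP21 in 39.1%, 42.8% and 18.4%. MAL was read in 6.14%, 11.9% and 1.02%. AIF1 was the exception, with 55.2%, 51.5% and 53.8%. At equal reads per well the shares of CD1E, ITM2A, ARPP21 and MAL were thus lowest in the 3'DE-UMI library. That of AIF1 lay between the 3'DE libraries, and above both after thinning to 2000 reads (32.7%, 31.9% and 40.6%). How common either position was over all human genes after thinning was not computed. Equal reads are not equal molecules, since a UMI of the 3'DE-UMI library took 13.9 reads. RAG1 was read in 0.767%, 5.70% and 6.54% of thinned wells, and PTCRA in 0.512%, 2.38% and 1.64%. The median number of genes per cluster 1 well, over both species, was 2836, 2708 and 844, and its part in the lower shares was not tested.

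**Figure D3:**
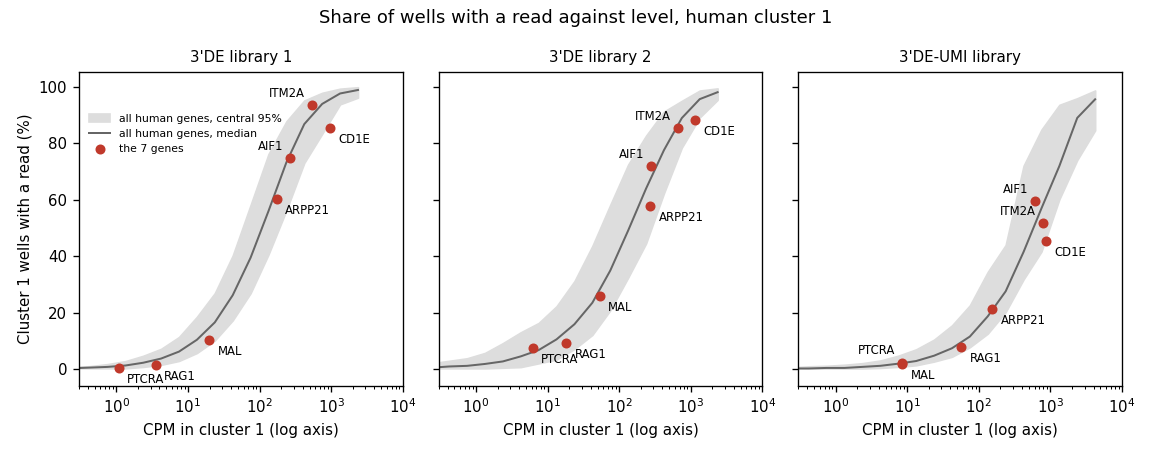
Share of human cluster 1 wells with a read (percent) against the level in CPM (log axis), 1 panel per library. The grey line and band are the median and the central 95% of all human genes by level, and the red points are the 7 genes; CD1E lies below the median line and near the lower edge of the band in each panel.

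Each gene was also set beside the other human genes within 1.25-fold of its level. CD1E was read in fewer wells than nearly all of them. In 3'DE library 1, 97.5% of the 80 genes at its level were read in more wells, and their median was 95.9% of wells against 85.2% for CD1E. The same held for 97.4% of 77 genes and 98.9% of 90 genes in the other libraries. Its reads were thus carried by fewer wells in 3 of 3 libraries. These genes were matched on reads, and a CD1E UMI took 23.1 reads in the 3'DE-UMI library against 13.9 over all human genes. The part of this in its lower share of wells was not tested. ITM2A was in fewer wells than 26.8%, 55.7% and 85.2% of the genes at its own level, and AIF1 than 59.5%, 31.2% and 16.7%, so neither lay to one side in all libraries. RAG1 was in fewer wells than 93.4%, 80.8% and 81.9% of genes at its level, and MAL than 92.2%, 63.7% and 51.0%. For ARPP21 the values were 64.8%, 87.7% and 46.1%, and for PTCRA 79.3%, 27.4% and 33.3%.

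The share of wells with CD1E rose with depth in every library. When cluster 1 wells were put in 3 groups of like size by depth, CD1E was read in 80.7%, 85.2% and 89.7% of wells from the shallowest to the deepest in 3'DE library 1. For 3'DE library 2 the shares were 76.5%, 90.6% and 97.3%. With the 3'DE-UMI protocol they were 23.7%, 39.0% and 73.4%. Levels did not follow that order: they were between 877 and 1125 CPM in 3'DE library 1, highest in the shallowest wells, between 1090 and 1454 CPM in 3'DE library 2, highest in the middle group, and between 713 and 926 CPM in the 3'DE-UMI library, highest in the deepest. In 3'DE library 1, 122 of the 136 deepest wells had a CD1E read.

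UMIs gave another order of the genes from that of the reads. Cluster 1 of the 3'DE-UMI library held 1097327 human UMIs, a median of 1386 per well, with 13.9 reads per UMI over all human genes. ITM2A had 723 UMIs, AIF1 704 and CD1E 571, followed by ARPP21 with 115, RAG1 with 66, PTCRA with 9 and MAL with 8. CD1E led the 7 genes by reads in this library, yet came after ITM2A and AIF1 by UMIs, with 23.1 reads per CD1E UMI. ARPP21 had 20.3 reads per UMI, ITM2A 16.5, MAL 16.3, PTCRA 14.4, AIF1 13.3 and RAG1 13.1. A UMI of ITM2A was found in 50.7% of wells and of AIF1 in 58.0%, so AIF1 was spread over more wells with about as many molecules. PTCRA and MAL had too few UMIs to be ordered.

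Most wells that held a molecule of a rare gene held few. RAG1 was counted in 40 wells, of which 25 had 1 UMI, 7 had 2 and 8 had 3 or more, with 4 at most. Every well with a PTCRA or a MAL molecule had exactly 1. CD1E ranged up to 20 UMIs in a well, ITM2A up to 27 and AIF1 up to 12. The variance of UMIs over wells, divided by the mean, was 4.61 for ITM2A, 3.72 for CD1E, 2.39 for AIF1, 2.09 for RAG1 and 1.48 for ARPP21. Depth per well, which was not held equal here, also enters these ratios.

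Wells of cluster 1 usually held some but not all of the genes. After thinning to 5000 reads, the median well held 3, 3 and 2 of the 7, and the highest number in a well was 5, 6 and 5. None of the 7 was read in 3.58%, 0.950% and 17.2% of wells. In both 3'DE libraries the abundant genes met in the same well about as often as the product of their shares gives. CD1E and AIF1 were both read in 167 of 391 wells of 3'DE library 1, where the product gives 164, and in 173 of 421 wells of 3'DE library 2, where it gives 176. In the 3'DE-UMI library they met in 140 of 489 wells, where the product gives 113.

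Wells of the 3'DE-UMI library also differed in how many genes they held at equal reads. Wells above the median held a median of 882 human genes and 2.18 of the 7 on average, and the rest 521 and 1.32. In 3'DE library 2 the averages were 2.94 and 2.45, in the same direction, and in 3'DE library 1 they were 2.49 and 2.64. The part of this spread in the shared detection was not tested.

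**Figure D4:**
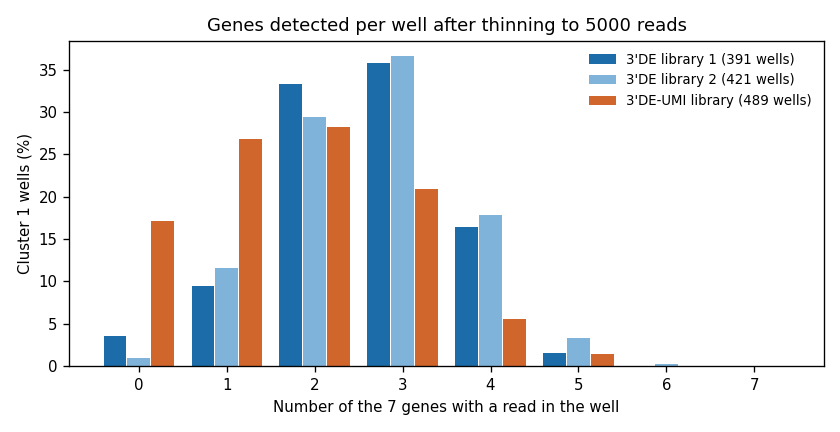
Share of human cluster 1 wells (percent) by how many of the 7 genes had a read, after each well was thinned to 5000 reads, with 1 bar per library. Both 3'DE libraries peak at 3 genes, while the 3'DE-UMI library peaks at 2 and has 17.2% of wells with none.

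The genes whose level over cluster 1 wells was most like that of each of the 7 were sought among 1719 human genes read in at least 10% of wells of every library. Likeness was the mean over libraries of Pearson's r of log2(CPM + 1) in wells thinned to 5000 reads. One gene passed a mean r of 0.2, ENSG00000167286 for CD1E, with r = 0.231, 0.127 and 0.264, and no gene passed for the other 6. For RAG1 the most alike gene was ARPP21, at a mean r of 0.101. In counts this sparse such values are weak, and wells of a library share their depth and free RNA.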

How the data were processed

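The 3 ICELL8 libraries of mixed human and mouse lines were analysed. The deposited tables hold read counts per gene and well for each library and UMI counts for the 3'DE-UMI library, which the authors made by mapping to a combined hg19 and mm10 reference. Per the submitters' processing notes, STAR 2.7.0b and 2.4.2a and a Cell Ranger 1.2.0 reference were used. In the study's methods, reads were downsampled towards a common depth per cell before the count tables were made. The totals were 35581264, 109702878 and 44883618 reads, and a gene with 3 reads in cluster 1 stood at 0.295, 0.0645 and 0.197 CPM.

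Human wells were clustered with scanpy 1.11.5 (1000 variable genes, scaled per library, 20 principal components, 15 neighbours, Leiden resolution 0.1). To keep clustering and testing apart, human genes were divided into 2 sets, with the clusters for each set taken from the other. The sums of reads of a cluster in a library were tested with edgeR 4.0.16 (quasi-likelihood, two-sided, filterByExpr, TMM factors, Benjamini-Hochberg over all genes tested at 0.05). The SE is the size of the log2 difference over the square root of F. The scripts were tested on simulated counts. DESeq2 1.42.0, RLE factors, no filter, stricter wells, UMIs, other clustering, no library block and leaving out libraries were alternatives. Ratios without a library, and those of ITM2A without the deepest wells, were added after seeing the data. No doublet caller was run; wells had been chosen by image as single cells, and wells of 2 species were left out. Nothing in the labels says that libraries came from separate cultures, so p-values measure at most the spread between libraries. That spread was estimated by pooling over genes, so the p-value of a gene rests little on its own spread.

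The 7 genes and all lists were chosen with earlier results of these data known, and all 7 are described in order of role. Lists of other thymocyte genes, of mature T cell genes and of markers of both human lines, and a mitochondrial share, could not be used, because the tables give Ensembl identifiers and the gene table used here pairs none with symbols. Gene positions and sequences were not analysed here.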

Additional observations from a re-analysis of the deposited data

Results flagged for a closer look

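Reads and UMIs of the 7 genes were also found in wells that entered no comparison. Of the barcodes counted in UMIs, 1543 have no read counts, and 53 UMIs of the 7 genes lay in 45 of them. Wells of both species held 2998 reads of the 7 genes in 3'DE library 1 and 834 with the 3'DE-UMI protocol. As CPM of human reads, these wells stood at 1847 and 2615 for the 7 genes together, against 1298 and 1934.6 in the mouse wells of the same libraries. In 3'DE library 2 the wells of both species held 4928 such reads, at 2061 CPM against 2072 in its mouse wells.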

How the results depend on the processing

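In the comparison of clusters, 3 of the 7 genes were called, DESeq2 called 5, and 1 to 3 were called when a library was left out, with the lowest number without 3'DE library 1. Without the library block 4 were called, MAL in addition (adjusted p = 0.0497), and the calls of CD1E, ARPP21 and AIF1 held. No paired analysis was possible between protocols because only 3'DE library 2 shares a cell mixture with the 3'DE-UMI library, which leaves the pair without replication. Over all genes, 394 were called, against 1396 with DESeq2, 943 with UMIs, 1134 without the library block, 243 in wells of at least 5000 reads, 27 without 3'DE library 1 and 214 without 3'DE library 2. PTCRA passed the filter in 7 of 11 alternatives. In the comparison of protocols, 2 of the 7 genes were called and 1 with UMIs, and over all genes 1704 were called, against 735 with UMIs. Leaving out a 3'DE library, the log2 difference ranged from -0.30 to 0.065 for CD1E and from -0.74 to 0.015 for ARPP21, above 0 without 3'DE library 2. Of the levels in the 3'DE-UMI library, 5 of 7 lay outside the 3'DE range as a mean over wells (not PTCRA and ARPP21) and 6 without the deepest 10% of wells (not PTCRA). Of 126 shares of wells recomputed, 45 left their exact interval, mostly after thinning, and of 63 levels, 12 moved beyond the spread of the 3'DE libraries. The causes were not tested. The comparison of a thymocyte list was not run, since identifiers could not be paired with symbols. Cluster 2 of the 3'DE-UMI library, with 182769 human reads, limits what can be said of rare genes there.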
